A study of Mus musculus with 2 samples.

Results

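The 8 SMAD genes of the mouse, Smad1, Smad2, Smad3, Smad4, Smad5, Smad6, Smad7 and Smad9, were examined for GATA4 chromatin immunoprecipitation sequencing (ChIP-seq) peaks in cultured skeletal muscle myoblasts. They were taken by name from 21887 protein coding genes of the RefSeq annotation of GRCm38, and a peak was counted for a gene when its centre lay in the gene span or within 50 kb of it. By that rule 37 of the 17539 peaks in the deposited list, which is named for GATA4 but whose header names no library, belonged to SMAD genes, and no peak was counted for more than 1 of them. The study held 1 library precipitated with a mixture of 3 antibodies to GATA4, a DNA-binding factor of the GATA zinc finger family, and 1 library precipitated with control IgG. Both came from myoblasts grown out of satellite cells, the resident stem cells of muscle fibres. Both were kept in growth medium with serum and bFGF, and both came from the strain STOCK Myf5tm1Pas/J, which carries a targeted allele of Myf5. The label does not say how many animals or cultures were used, and there was no replicate. Peak data of the IgG library were not analysed here, so nothing below is set against a measured background. A peak list holds no transcript levels, so neither the cell type nor the expression of any SMAD gene could be checked in it.

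SMAD proteins carry signals of the TGF-beta superfamily from the cell surface to the nucleus. Receptor-regulated SMADs are phosphorylated by type I receptors: Smad1, Smad5 and Smad9 encode those of the BMP branch, and Smad2 and Smad3 those of the TGF-beta, activin and myostatin branch. They pair with SMAD4, the common partner encoded by Smad4, and regulate genes together with other transcription factors. SMAD6 and SMAD7 are the inhibitory SMADs, which block receptors or SMAD complexes and are themselves induced by the pathway. In skeletal muscle, myostatin and TGF-beta signal through SMAD2 and SMAD3 and restrain growth and differentiation, while BMP signalling is known to favour the expansion of precursors and the upkeep of muscle mass.

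GATA4 peaks were spread very unevenly over the family. Smad3 had 17 peaks, Smad6 had 8, Smad7 had 5 and Smad1 had 4. Smad2, Smad5 and Smad9 had 1 peak each, and Smad4 had none. Thus 7 of the 8 SMAD genes, or 87.5% (exact Clopper-Pearson 95% interval 47.3% to 99.7%, counting error only), had a peak in the span or within 50 kb. That interval treats the genes as independent random draws, but they are the whole family and were chosen by name. It shows only how little 8 genes can settle. Among all protein coding genes the share was 56.8%. The SMAD genes are long, with a median span of 65.0 kb against 17.2 kb over all protein coding genes, and a longer gene offers a wider window. Among the 5691 protein coding genes with a span between those of Smad7, the shortest member, and Smad3, the longest, 66.2% had a peak. With only 8 members and no replicate, the presence of a peak does not set the family apart. What varied within it was the number of peaks per gene.

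**Figure D1:**
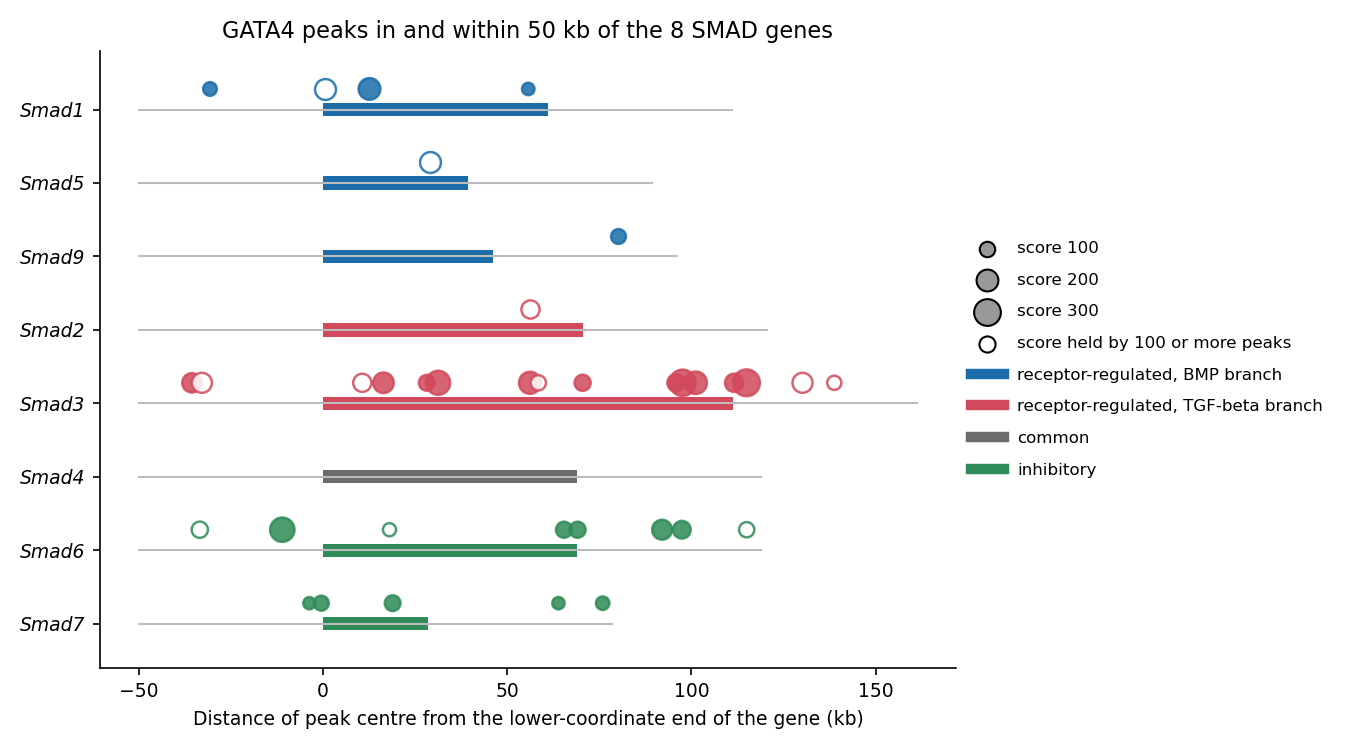
Position of each of the 37 GATA4 peaks (circles, area scaled to the MACS score) relative to the lower-coordinate end of its SMAD gene, in kb. Thick bars are gene spans, thin lines reach 50 kb beyond each end, and open circles are peaks whose score is held by 100 or more peaks of the list. Smad3 carries 17 peaks and Smad4 none.

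Each peak had a score from MACS, the authors' peak caller. It is the authors' value per peak and is compared here between peaks of this list alone. The 37 peaks at SMAD genes had a median score of 126 and ran from 62.5 to 300, against a median of 99.3 and a range from 50.1 to 861 over the whole list. Of the 37, 25 scored above the median of the list, and 14 of these 25 were at Smad3. Without Smad3, the other 7 SMAD genes had 20 peaks with a median score of 105, and 11 of the 20 scored above the median of the list. The median width of the 37 peaks was 770 bp, against 745 bp over all peaks.

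The scores could be read back as numbers of reads. For 17492 of the 17539 peaks, or 99.7%, the score matched, within 0.1, −10 log10 of a Poisson upper tail for a whole number of reads over a uniform background of 0.508 reads per 600 bp. Up to 600 bp of width the score depended on the read number alone, and above it the background grew with the width. All 37 peaks at SMAD genes were among those matched. They rested on 8 to 27 reads, with a median of 13, against 7 to 69 reads with a median of 11 over all matched peaks. A read here is whatever unit the caller counted: the libraries were sequenced as read pairs, and the sources used do not say whether pairs or single reads were counted. The tail was taken as that number of reads or more, and each number is 1 lower if the caller counted more than that number. Counting error is therefore wide. A peak of 8 reads has an exact Poisson 95% interval from 3.45 to 15.8 reads, and a peak of 27 reads one from 17.8 to 39.3. These intervals cover counting error only, and the handling of duplicate reads is not stated in the sources used.

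**Figure D2:**
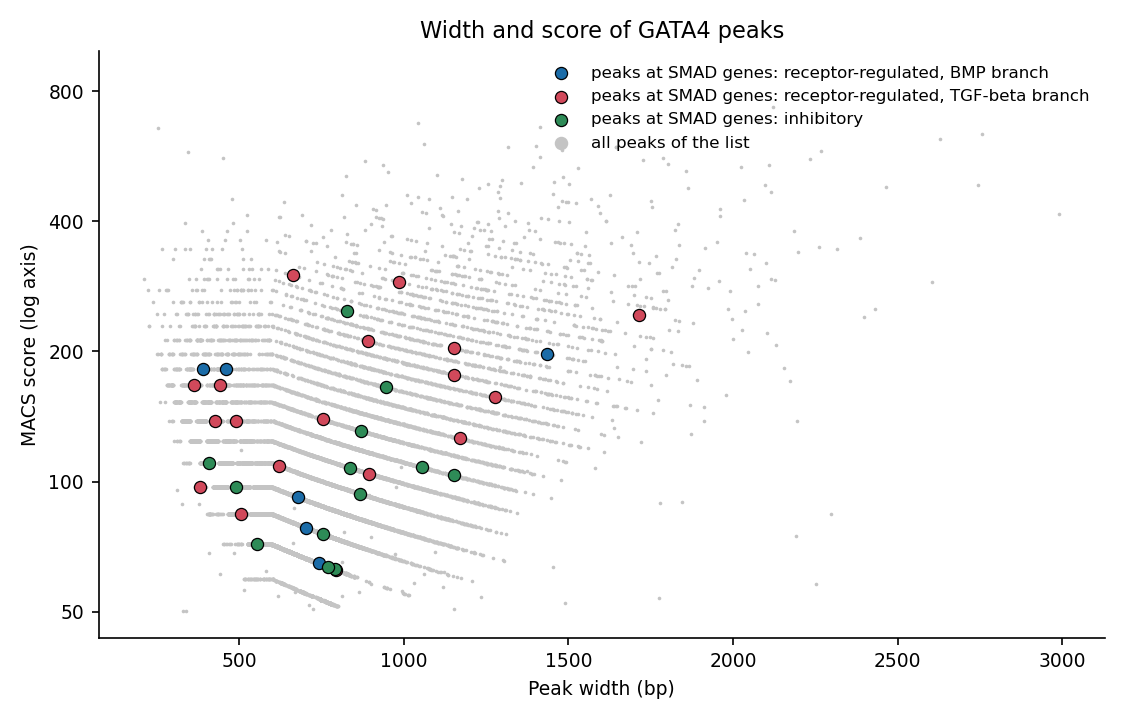
Width in bp against the MACS score on a log axis, for all 17539 peaks (grey) and for the peaks at SMAD genes (coloured by class). Scores fall on discrete lines, 1 for each read number, which are flat up to 600 bp and fall with width beyond it. The SMAD peaks run from a score of 62.5 to 300.

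Among the receptor-regulated SMADs of the TGF-beta branch, Smad3 and Smad2 stood at opposite ends. Smad3 lies on the minus strand of chromosome 9, from 63646766 to 63757994, and its 17 peaks amounted to 8.05 per 100 kb of its window. In all, 22 protein coding genes, Smad3 included, had 17 or more peaks in such a window, and 99.9% of genes had fewer. By density, 99.8% of genes were lower. The median gene had 1 peak, or 0.708 per 100 kb. Peaks covered 6.75% of the bases of the Smad3 window. On chromosome 9 as a whole, 61.4% of protein coding genes had a peak, close to the share over all chromosomes.

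The Smad3 peaks began upstream of the gene and ran through it in groups. In the direction of transcription, 4 peaks lay upstream of the RefSeq start, 11 lay inside the span and 2 lay beyond its far end. The highest score of the family, 300, belonged to a peak of 664 bp (63761381 to 63762044) centred 3.72 kb upstream of the start, which held 24 reads (exact Poisson 95% interval 15.4 to 35.7). A peak of score 139 and 14 reads (63757987 to 63758741) was centred 0.37 kb upstream and reached over the start itself. Farther upstream, peaks at 18.9 and 27.6 kb scored 167 and 84.1 and were 441 and 504 bp wide. The first of these lay within the lncRNA gene Gm35941.

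Inside Smad3, 4 peaks stood in a run of 6.37 kb (63742001 to 63748371), centred from 10.1 to 15.4 kb downstream of the start. Their scores were 211, 62.5, 290 and 126, in the order of transcription. The peak of score 290 held 26 reads (exact Poisson 95% interval 17.0 to 38.1) and its neighbour of score 62.5 held 8 (3.45 to 15.8). These were the highest and lowest scores of the run, picked after they were seen, so the intervals do not test a difference between them. Across the list there were 32 runs of 4 or more peaks at gaps of up to 2 kb, holding 167 peaks, and 1 of these runs was at a SMAD gene. No peak was centred between 20 and 40 kb downstream of the start. Then came a group of 3 at 40.8, 52.8 and 55.05 kb, with scores of 109, 97.0 and 203. A group of 4 followed between 80.01 and 101 kb. It held the widest peak of the family, 1715 bp with a score of 243 and 27 reads, and peaks of score 104, 177 and 138 farther downstream. The table gives no exons, so the peaks inside the gene cannot be placed in exons or introns.

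Beyond the far end of Smad3, at 144 and 147 kb from its start, peaks of score 167 and 157 lay inside the neighbouring gene Aagab, which encodes a protein that binds adaptin complexes of vesicle traffic. Distance does not say which gene a peak serves, and 6 of the 37 peaks had another protein coding gene nearer than the SMAD gene. Giving each peak to its nearest protein coding gene left 15 for Smad3. The peaks inside Aagab were also within 50 kb of Iqch.

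Smad2 had a single peak. It lies on chromosome 18, from 76241090 to 76311748, and its peak (76297103 to 76297529) was inside the span, 14.4 kb from the higher-coordinate end. That peak was 427 bp wide, scored 138 and held 13 reads (exact Poisson 95% interval 6.92 to 22.2). The next peaks were 76.0 kb below the span and 661 kb above it. Smad2 and Smad3, whose products share upstream receptors, thus had 1 and 17 peaks, with spans of 70.7 and 111 kb.

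**Figure D3:**
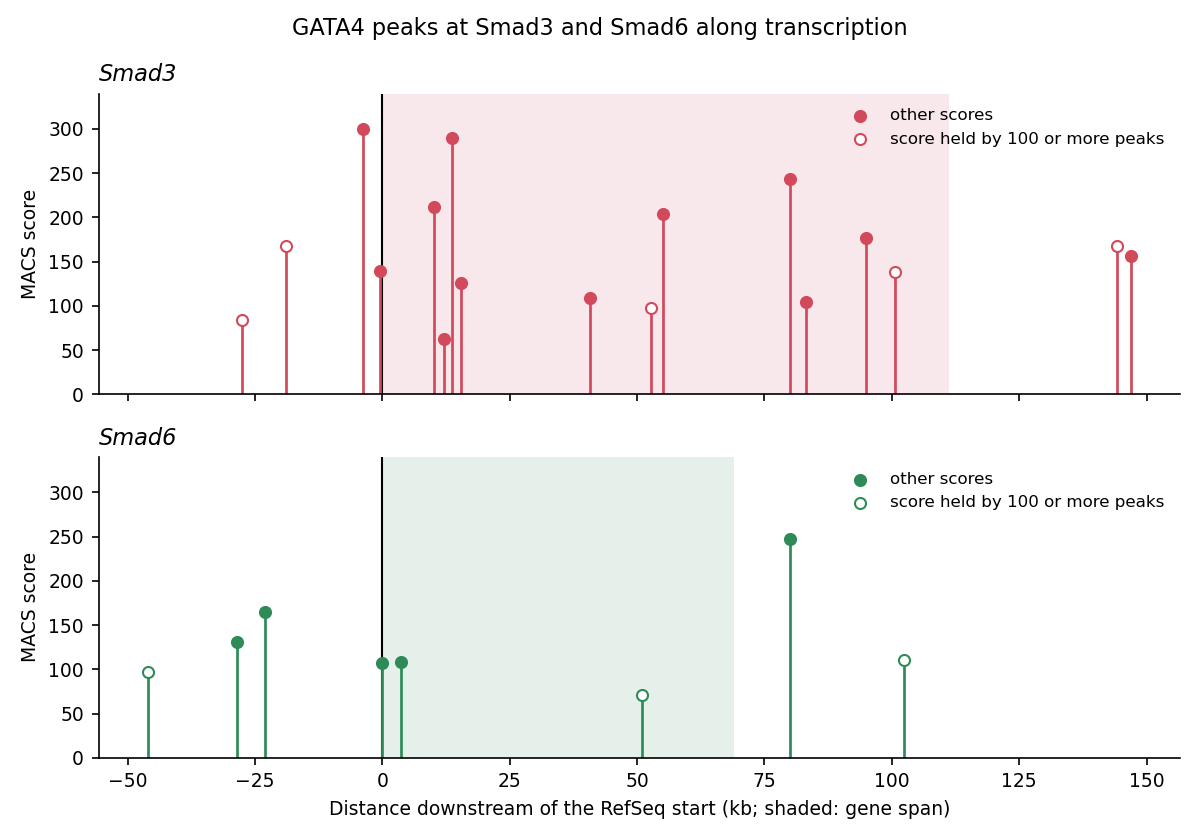
MACS score of each GATA4 peak at Smad3 (17 peaks) and Smad6 (8 peaks) against the distance of its centre downstream of the RefSeq start, in kb. Shading marks the gene span and open circles mark scores held by 100 or more peaks. Both genes have a peak at the start, and Smad3 has a run of 4 peaks between 10.1 and 15.4 kb downstream of it.

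In the BMP branch, Smad1 had most of the peaks. It lies on the minus strand of chromosome 8, from 79338395 to 79399428. Its highest-scoring peak, 197 with 22 reads (exact Poisson 95% interval 13.8 to 33.3), was 1436 bp wide and lay inside the gene, 48.4 kb downstream of the start. A second peak, of score 182 and 390 bp, was centred 0.423 kb inside the lower-coordinate end, where the minus strand gene ends. Another, 5.34 kb downstream of the start, scored 64.7 with 8 reads, and 7.96% of all peaks scored lower. The last, 30.7 kb beyond the lower-coordinate end, scored 78.2 and lay in the lncRNA gene Gm4890, nearer to Mmaa, a gene of cobalamin metabolism.

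Smad5 and Smad9, the close relatives of Smad1, had 1 peak each. The Smad5 peak, on chromosome 13 from 56731899 to 56732359, lay inside the gene and scored 182 with 16 reads (exact Poisson 95% interval 9.15 to 26.0). It was isolated: the next peaks were 192 kb below the span and 301 kb above it. Gm45623 and Trpc7, which encodes a cation channel, also lay within 50 kb of it. The Smad9 peak, on chromosome 3 from 54835273 to 54835950, scored 92.0 with 10 reads and lay 33.9 kb beyond the higher-coordinate end. Its nearest protein coding gene was Rfxap, a regulator of MHC class II genes, so no peak was nearest to Smad9. Per 100 kb of window, Smad5 had 0.718 peaks, Smad9 0.684 and Smad2 0.586, each near the median of 0.708 over all protein coding genes.

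Smad4, the shared partner of both branches, had no peak in its span or within 50 kb. It lies on chromosome 18, from 73634790 to 73703791, inside a stretch of 283 kb without a peak. The nearest peak, 88.4 kb below the span, scored 69.6 and was nearest to Mex3c. On the other side the next peak was 127 kb away and scored 181. Smad9 lay in a peak-free stretch of comparable length, 293 kb, with its peak at the edge. Of the protein coding genes of chromosome 18, 62.8% had a peak in the same window. The fewest reads in any matched peak of the list were 7, so binding at Smad4 below about that level was not detectable in it.

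Both inhibitory SMAD genes had several peaks. Smad6 lies on the minus strand of chromosome 9, from 63953076 to 64022085, and had 8 peaks, or 4.73 per 100 kb, with 98.5% of protein coding genes lower by density. A peak of 837 bp (64021756 to 64022592) covered its RefSeq start, scored 108 and held 12 reads (exact Poisson 95% interval 6.20 to 21.0). Another of score 108 was centred 3.57 kb downstream of the start. Upstream, peaks at 23.1, 28.4 and 46.0 kb scored 165, 131 and 97.0, and the peak at 28.4 kb lay in the lncRNA gene 1110036E04Rik. Its highest-scoring peak, 248 with 22 reads (exact Poisson 95% interval 13.8 to 33.3), lay beyond the far end of the gene, 11.1 kb below the lower-coordinate end and within the lncRNA gene Gm36033. The remaining peaks were a peak of score 71.6 inside the gene, 50.97 kb downstream of the start, and a peak of score 110 at 33.5 kb below the lower-coordinate end. All 8 had Smad6 as their nearest protein coding gene, and the peak 46.0 kb upstream also lay within 50 kb of Lctl.

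Smad3 and Smad6 are neighbours, 195 kb apart, and their peaks did not run together. Between the last peak counted for Smad3 and the first for Smad6 was a stretch of 134 kb without a peak.

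Smad7 lies on chromosome 18, from 75367365 to 75395935, and had 5 peaks, or 3.89 per 100 kb, with 97.2% of protein coding genes lower. Its peaks scored low, from 62.6 to 103 with a median of 75.6, and 4 of the 5 were at or below the median score of the list. The pair on the lower-coordinate side was centred 3.74 and 0.503 kb from the span, with scores of 62.6 and 93.7, inside the lncRNA gene Gm20544. The nearer of them ended 68 bp short of the annotated gene. The highest, 103 with 13 reads (exact Poisson 95% interval 6.92 to 22.2), lay inside Smad7. The remaining pair, of score 63.5 and 75.6, lay inside the neighbouring gene Ctif, which encodes a translation factor of the nuclear cap-binding complex. The strand of Smad7 is not in the tables used, so its start was not assigned to either end.

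By class, the receptor-regulated SMAD genes had 24 peaks over 5 genes, or 2.90 per 100 kb, the inhibitory ones 13 over 2 genes, or 4.37 per 100 kb, and the common one 0. The receptor-regulated total rested on Smad3: without it the other 4 genes had 7 peaks, or 1.13 per 100 kb. The BMP branch had 6 peaks over 3 genes and the TGF-beta branch 18 over 2. Of the receptor-regulated peaks 16 of 24 were inside the gene, 11 of them in Smad3, and 10 of the 13 inhibitory peaks were outside it. The part of a window outside the span is larger for a short gene. Spans ran from 28.6 kb for Smad7 to 111 kb for Smad3, so these counts do not compare the classes by position. The median score was 148 at receptor-regulated genes and 103 at inhibitory ones, with medians of 15 and 11 reads. These classes hold too few genes for a comparison over genes, and the classes were not tested against each other.

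**Figure D4:**
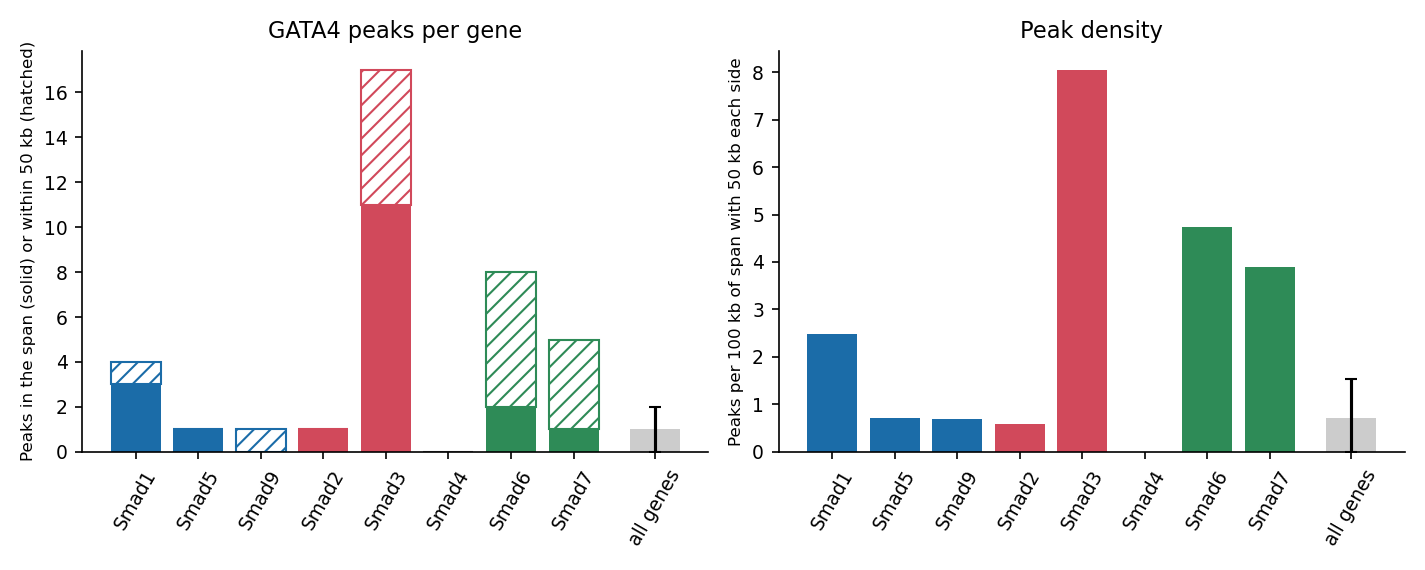
Left, GATA4 peaks per SMAD gene, inside the span (solid) or outside it within 50 kb (hatched). Right, peaks per 100 kb of that window. The grey bar is the median over all 21887 protein coding genes with its quartiles (1 peak, 0.708 per 100 kb), and Smad3, Smad6, Smad7 and Smad1 stand above its upper quartile.

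Other ways to count kept Smad3 first. Inside the span alone, 6 of 8 SMAD genes had a peak, against 21.0% of all protein coding genes, and Smad3 had 11 of the 19 peaks. The shares over all genes in this paragraph were not matched for gene length. The SMAD genes are long, with a median span of 65.0 kb against 17.2 kb, so these shares do not set the family apart. Peaks scoring above 138, the upper quartile of the list, were found at 4 of 8 SMAD genes, against 19.9% of all genes. Smad3 had 10 of these 15, Smad1 and Smad6 had 2 each and Smad5 had 1, while Smad7 had none. The Smad2 peak equalled that quartile. A further count concerned narrow peaks. In the list 11 scores were each held by 100 or more peaks, 4402 peaks in all, and 4400 of those were at most 600 bp wide. At such widths equal read numbers give equal scores, so a shared score does not mark a weaker peak. At SMAD genes 11 of the 37 peaks were of this kind, 29.7% against 25.1% of the list, including the sole peaks of Smad2 and Smad5. Leaving these peaks out, a choice made after seeing the data, 5 of 8 SMAD genes had a peak, against 49.4% of all protein coding genes, and Smad3 kept 12, Smad6 5, Smad7 5, Smad1 3 and Smad9 1.

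The starts of the SMAD genes could be read in sequence for 5 members. RefSeq windows of 300 bases on GRCm38.p6, from 250 before to 50 after a start, were at hand for Smad1, Smad3, Smad6 and Smad9 (1 each) and Smad5 (3). Peaks overlapped 2 of these 7 windows, those of Smad3 and Smad6, against 6.1% of all 32851 windows. The Smad3 and Smad6 windows are shown as the promoters under a peak, and the most downstream Smad5 window as the one that held a GATA match but no peak. Capitals mark matches, on either strand, to a GATA hexamer (the letters GATA with A or T before them and A or G after them) or to an AP-1 site (TGACTCA, also with G as its central base). They also mark an E-box (letters CAGCTG, or the variant CAGGTG), the SMAD box CAGAC and the SMAD palindrome GTCTAGAC. The GATA hexamer contains the 4-letter GATA core, and the other motifs do not contain each other. Base 251 is the RefSeq start.
Smad3 promoter (chr9:63757945-63758244, minus strand): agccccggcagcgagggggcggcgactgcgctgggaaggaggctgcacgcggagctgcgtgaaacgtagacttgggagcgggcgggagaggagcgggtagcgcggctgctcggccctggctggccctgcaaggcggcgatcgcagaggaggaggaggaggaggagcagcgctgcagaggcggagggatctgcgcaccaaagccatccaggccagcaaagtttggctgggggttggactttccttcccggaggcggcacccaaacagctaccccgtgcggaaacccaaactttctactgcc
Smad6 promoter (chr9:64022010-64022309, minus strand): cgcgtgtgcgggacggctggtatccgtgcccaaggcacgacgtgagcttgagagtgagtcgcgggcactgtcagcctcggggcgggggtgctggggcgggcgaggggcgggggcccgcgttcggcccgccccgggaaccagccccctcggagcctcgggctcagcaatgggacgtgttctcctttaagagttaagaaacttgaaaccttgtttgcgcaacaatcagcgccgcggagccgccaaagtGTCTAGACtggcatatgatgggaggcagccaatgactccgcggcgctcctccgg
Smad5 promoter (chr13:56703418-56703717, plus strand): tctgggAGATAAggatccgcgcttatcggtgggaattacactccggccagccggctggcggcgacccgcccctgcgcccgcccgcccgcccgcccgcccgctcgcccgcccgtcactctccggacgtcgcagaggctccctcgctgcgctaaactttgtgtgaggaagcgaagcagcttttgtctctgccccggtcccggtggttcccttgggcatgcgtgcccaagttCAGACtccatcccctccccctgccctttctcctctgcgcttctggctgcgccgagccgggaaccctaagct

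The peak at Smad3 covered 258 of the 300 bases of its window and the peak at Smad6 covered all 300. Neither window held any of the GATA hexamers, and the Smad3 window held none of the letters searched. Among all RefSeq windows 29.8% held a GATA hexamer, and among the 2004 under a peak 23.8% did. That Smad5 window held AGATAA at bases 7 to 12 and the SMAD box at bases 230 to 234, and its nearest peak was 28.2 kb away. The Smad6 window held GTCTAGAC, a palindrome that SMAD3 and SMAD4 are known to bind in vitro, at bases 247 to 254, across the start. That palindrome was searched for after its letters had been seen there. It occurred in 70 of all 32851 windows, or 0.213%, and in 14 of the 2004 under a peak, or 0.699%. The windows of Smad1 and of the other 2 Smad5 starts held none of the motifs marked by capitals, and that of Smad9 held an E-box. All 7 windows were rich in G and C, from 63.0% to 73.7%, against medians of 59.7% over windows under a peak and 52.7% over all windows. A match is a description of letters, not a bound site, and the windows hold a small part of the 37 peaks. The distal peaks, which include the highest scores, were not read in sequence here.

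Genes of the same pathway were counted in the same way. Of 51 further genes in 5 lists, 39 had a peak in the span or within 50 kb, or 76.5%, against 56.8% of all protein coding genes. The lists were not matched to all genes for length, and a peak could count for several listed genes, as at Acvr1b and Acvrl1. Giving each peak to its nearest protein coding gene left 29 of the 51 with a peak, against 30.3% of all genes. The pathway genes had a median of 1 peak and 0.982 per 100 kb, against 2.5 peaks and 1.60 per 100 kb over the 8 SMAD genes and 1 peak and 0.708 per 100 kb over all genes. No pathway gene in the lists reached the 17 peaks of Smad3: the highest, Runx2, had 11. By density the highest was Sp1, with 6.92 peaks per 100 kb against 8.05 for Smad3. Id3 had 5.91 and Amhr2, whose window overlaps that of Sp1, had 5.47, both above the 4.73 of Smad6. Dense peaks were thus not particular to SMAD genes.

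Among type I receptors, which phosphorylate the receptor-regulated SMADs, 6 of 7 genes had a peak. For this list and those that follow, the share over all protein coding genes was 56.8%, not matched for length. No list was tested against it. The highest scores were at Tgfbr1 (248, inside the gene), Bmpr1a (138) and Bmpr1b (124). Of 8 genes of type II receptors and co-receptors 6 had a peak, with scores up to 167 at Tgfbr2 and at Bambi, a decoy receptor, and up to 156 at Amhr2. The Tgfbr2 peak lay 49.1 kb away, nearer to Gadl1, and the Amhr2 peak was nearer to Sp1. Of 11 genes of SMAD anchors, phosphatases and ubiquitin enzymes 10 had a peak, led by Smurf1 (207), a ubiquitin ligase for SMADs, then Zfyve9 (167), the anchor that presents SMAD2 and SMAD3 to the receptor, and Stub1 (159, at 38.2 kb, where Antkmt was nearer). Acvr1c, among the type I receptors, Bmpr2 and Tgfbr3, among the type II receptors and co-receptors, and Usp15, a deubiquitinase, had no peak.

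Of 12 genes of nuclear partners and corepressors of SMADs 8 had a peak, or 66.7%, against 56.8% of all protein coding genes. The highest scores were 603 at 31.1 kb from Zeb1, 335 at 49.6 kb from Tgif1, where Dlgap1 was nearer, and 249 inside Runx2. Ski, Skil and Tgif2, which encode corepressors of SMAD complexes, and Jun had no peak. Of 13 SMAD target genes 9 had a peak, or 69.2%, against the same 56.8%. Scores reached 297 at 5.82 kb from Ccn2, 182 at 14.5 kb from Id2 and 176 at Id3. With so few genes, neither share sets its list apart. Tgfbi, Msx1, Msx2 and Hey1 had none.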

How the data were processed

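GATA4 and IgG ChIP libraries were made from fixed, sheared chromatin of cultured mouse myoblasts and sequenced as paired reads, per the labels' protocols. The submitters' processing notes name CASAVA 1.8, Bowtie and the build GRCm38 (mm10). MACS, run in Galaxy, made the peak calls, per the file headers. The authors deposited 1 list with a position and a MACS score per peak. It was taken as the GATA4 library's from its name, since its header names no sample. Calling thresholds, software versions of MACS and Bowtie, the use of the IgG library and read depth are not stated in the sources used.

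Starts were made 1-based. Genes, their spans and promoter windows came from RefSeq tables of GRCm38.p6, and all 51 pathway symbols matched. Peak centres were assigned to spans widened by 50 kb with Python 3.11.15, pandas 2.3.3 and numpy 2.4.6, and the assignment was tested on simulated peaks. Read numbers were solved from the deposited score and width with scipy 1.17.1, allowing a difference of 0.1. The share of SMAD genes with a peak has an exact interval of 95%, which treats the genes as independent draws. Nothing was tested between libraries, because the GATA4 antibody mixture and the control IgG had 1 library each. The classes were not tested against each other because they hold too few genes.

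Members and lists were chosen with earlier results of these data known. The rule names all 8 SMAD genes and their peaks, protein coding genes within 50 kb of or nearest to such a peak, and up to 3 genes per pathway list by highest score, with ties kept. The pathway genes without a peak, Runx2 for its peak number, Sp1, Id3 and Amhr2 for their density, and the lncRNA genes were named after their values were seen. Alternatives were other windows, overlap, score limits and nearest genes. The read numbers, narrow-peak and span-range counts, the counts without Smad3 and the palindrome were added after seeing the data.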

Additional observations from a re-analysis of the deposited data

How the results depend on the processing

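The main values were 7 SMAD genes with a peak, 37 peaks (24 receptor-regulated, 0 common, 13 inhibitory) and 39 of the 51 pathway genes with a peak. Over all protein coding genes the share with a peak in the span or within 50 kb was 56.8%. Within 10 kb of the spans there were 24 peaks, 6 of them at inhibitory genes. In the spans alone there were 19 peaks, 3 at inhibitory genes. There 24 of the 51 pathway genes had one, against 21.0% of all protein coding genes. Within 100 kb Smad4 had 1 peak. Among peaks above the median score the inhibitory genes had 7. Above the upper quartile of scores, which 428 peaks equal, 4 SMAD genes had 15 peaks, 13 receptor-regulated and 2 inhibitory. At that limit 18 of the 51 pathway genes had one, against 19.9% of all protein coding genes. These shares over all genes were not matched for gene length. With the 4 letters GATA in place of 6, 4 of the 7 promoter windows held a match, against 1. They were the Smad5 windows, some of which overlap, and the Smad6 window. Among all RefSeq windows 57.9% held the 4 letters and 29.8% a GATA hexamer, so the 4-letter count does not set these windows apart. Narrower windows and higher score limits count fewer peaks by construction. The remaining alternatives stayed within 1.5 times of the main counts, and Smad3 had more peaks than any other member under each of the 8 alternatives. Peak density was 3.66 per 100 kb within 10 kb, against 2.86. The fewest reads in a matched peak were 7 and the lowest score was 50.1. Whether depth or a calling threshold sets this limit was not tested, and reads of either library were not analysed here. No paired analysis was possible because the GATA4 antibody mixture and the control IgG had 1 library each.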
